A study of Mus musculus with 8 samples.

Results

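Voltage-gated calcium and sodium channel genes were followed through RNA immunoprecipitates of CPEB1 and CPEB4 from mouse striatum. The members were all genes whose symbol in the array's annotation began with Cacna, Cacnb or Cacng, or with Scn and a digit. This gave 33 of the 17097 genes with a probe set of their own, 22 of calcium channels and 11 of sodium channels. The genes had 66 probe sets in all, and each gene was read from the one whose mean over the 8 arrays was highest. Of the 33 genes, 26 had a mean log2 value above 4.23, which is the median of the means of the array's probe sets, and were tested among 11345 genes. The 7 others, Cacna1f, Cacna1s, Cacnb4, Scn3a, Scn7a, Scn9a and Scn11a, are given as values only, which lay between 2.76 (Scn9a) and 5.53 (Scn7a) over the 8 arrays. The tested members nearest that limit were Cacna2d3 and Cacng5, with means of 4.29 and 4.37, and the untested ones nearest it were Scn7a and Scn11a, with 4.17 and 4.13.

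CPEB1 and CPEB4 bind the cytoplasmic polyadenylation element, a short motif in the 3′ untranslated region of an mRNA, and regulate its poly(A) tail and translation. In RNA immunoprecipitation (RIP) the RNA is crosslinked to its binding proteins and collected with an antibody to one of them, and IgG of rabbit, which has no such target, gives the RNA that comes down with beads and antibody. The fractions were CPEB4 RIP, CPEB1 RIP, IgG RIP and input, the lysate before precipitation, each from an HD and a WT pool. The mice were males of 7 to 8 months, their striata were combined within each genotype (4 mice are named in the design text), and each fraction of each pool has 1 array. HD is the label's term, and its meaning, the mutation and the strain were not given in the sources used here.

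Voltage-gated calcium and sodium channels open when the membrane is depolarised: calcium entry drives transmitter release and signalling, and sodium entry carries the action potential. A calcium channel has a pore protein of the Cacna1 family, a cytosolic beta subunit (Cacnb) and an extracellular alpha2delta subunit (Cacna2d). The Cacng family includes a subunit of the muscle channel and the TARPs, which are auxiliary subunits of AMPA-type glutamate receptors. Sodium channels have a pore protein (Scn1a, Scn2a, Scn8a and others) and single-pass beta subunits (Scn2b, Scn3b and Scn4b). Scn4b is abundant in medium spiny neurons, which project out of the striatum, and supports fast reopening of the sodium channel.

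The 8 arrays had medians of 4.03 to 4.28 over their probe sets. The number of the 11345 genes above a value of 8 was 1553 (HD) and 1810 (WT) in CPEB4 RIP, 866 and 1607 in CPEB1 RIP, 648 and 924 in IgG RIP, and 1160 and 770 in input. Of the 9 medium spiny neuron markers listed, 7 had a probe set and 6 of these lay above 4.23 in input. Among them Ppp1r1b, a dopamine signalling protein, had 10.30 in HD input and 11.07 in WT input. Tac1, a neuropeptide gene of these neurons, was near the bottom of the scale, with 3.92 in HD input and 3.22 in WT input. Of 3 measured markers of cortical excitatory neurons, only the vesicular glutamate transporter Slc17a7 lay above 4.23.

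**Figure D1:**
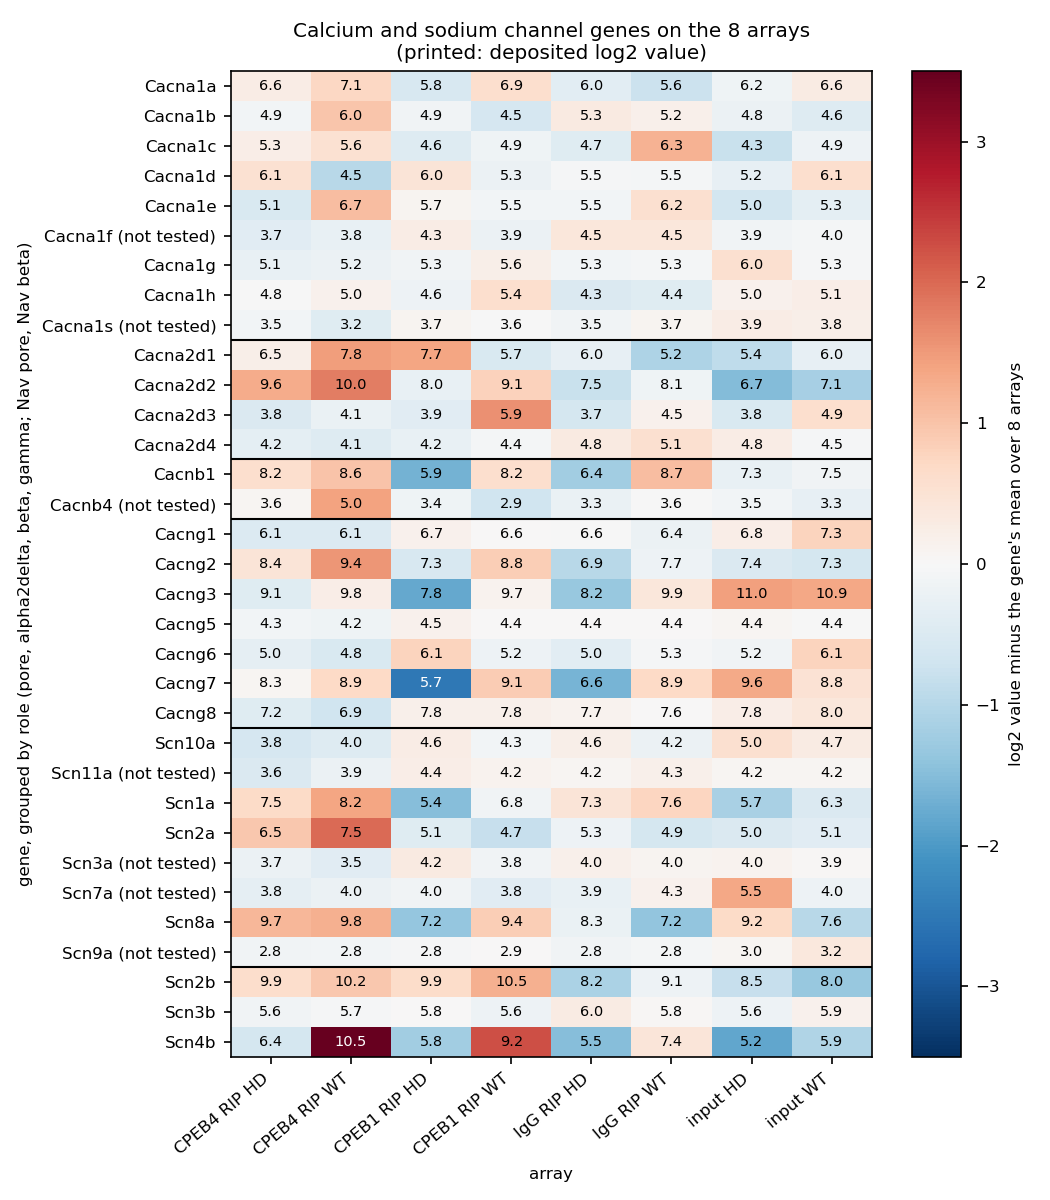
Deposited log2 value of each of the 33 channel genes (rows, grouped by role) on the 8 arrays (columns); the number is the value and the colour its difference from the gene's own mean. Cacna2d2 was highest on both CPEB4 arrays, and Scn4b was highest on the WT CPEB4 array at 10.46 and the WT CPEB1 array at 9.24.

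Which channel mRNAs came down with CPEB4 was asked against IgG. One of the 26 tested members, Cacna2d2, an alpha2delta subunit needed for normal cerebellar function in mice, was higher with CPEB4 at the test's threshold. Of all 11345 genes 2.33% were. None was lower, against 0.0441% of all genes. Cacna2d2 had log2 values of 9.57 (HD) and 10.04 (WT) in CPEB4 RIP, 7.48 (HD) and 8.10 (WT) in IgG RIP, and 6.73 (HD) and 7.11 (WT) in input. Both CPEB4 arrays lay above every other array, and the log2 folds over IgG were 2.09 in the HD pool and 1.94 in the WT pool. The fold was 4.04, a log2 fold of 2.02 ± 0.29 (SE, 2 pools; limma, Benjamini-Hochberg adjusted p = 0.0411).

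That call depended on the processing and on the probe set. It was lost without either CPEB4 array (adjusted p = 0.186 without HD, 0.212 without WT), without either IgG array (0.179 without HD, 0.183 without WT) and without either input array (0.0633), by limma in each case. The log2 fold was 1.06 after quantile normalization and 1.14 after cyclic loess. A second Cacna2d2 probe set had 8.62 (HD) and 8.53 (WT) in CPEB4 RIP, against 9.26 (HD) and 8.63 (WT) in IgG RIP. On it both CPEB4 arrays lay below both IgG arrays, by a log2 fold of -0.37 ± 0.29 (SE, 2 pools). Over 17 alternatives the adjusted p ran from 0.0416 to 0.218 and was under 0.05 in 4. Averaged over all 3 of the gene's probe sets, the log2 fold was 0.52 (limma, adjusted p = 0.218).

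Scn8a, Scn4b and Scn2a, 3 sodium channel genes, had the next largest log2 folds of CPEB4 over IgG, and none of them passed the test. Scn8a, the main channel of the axon initial segment, had 9.70 (HD) and 9.78 (WT) with CPEB4, against 8.32 (HD) and 7.16 (WT) with IgG. The CPEB4 arrays lay above both IgG arrays, and the difference was uneven between pools, with log2 folds of 1.38 (HD) and 2.63 (WT). The mean log2 fold of Scn8a was 2.01 ± 0.95 (SE, 2 pools; limma, adjusted p = 0.268).

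Scn2a, a pore channel of axons, had 6.47 (HD) and 7.50 (WT) with CPEB4, against 5.33 (HD) and 4.91 (WT) with IgG. The groups did not overlap, and all 6 arrays of the other fractions lay between 4.71 and 5.33. Its log2 fold was 1.86 ± 0.43 (SE, 2 pools; limma, adjusted p = 0.0986). The gene's other probe sets differed. One had 5.41 (HD) and 5.57 (WT) with CPEB4, against 3.61 (HD) and 3.19 (WT) with IgG. Another had 5.05 (HD) and 5.07 (WT) with CPEB4, against 3.10 (HD) and 3.09 (WT) with IgG. With each of the 45101 probe sets fitted singly, a setting chosen after seeing the data, both were higher with CPEB4, by 2.09 ± 0.22 (limma, adjusted p = 0.0331) and 1.96 ± 0.15 (limma, adjusted p = 0.0235) on the log2 scale (SE, 2 pools). Of all probe sets 1.26% were higher in that fit. The 2 lie below the 4.23 filter. The remaining probe set showed a log2 fold of 0.07 ± 0.23 (SE, 2 pools).

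Scn4b had 6.37 (HD) and 10.46 (WT) with CPEB4, against 5.47 (HD) and 7.40 (WT) with IgG. The groups overlapped, because the HD array with CPEB4 lay below the WT array with IgG. The log2 fold was 1.98 ± 0.84 (SE, 2 pools; limma, adjusted p = 0.236), with 0.89 in the HD pool and 3.06 in the WT pool.

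Cacng2, the TARP known as stargazin, had 8.36 (HD) and 9.45 (WT) with CPEB4, against 6.93 (HD) and 7.72 (WT) with IgG. The groups did not overlap and the pools gave similar log2 folds, 1.43 (HD) and 1.73 (WT). Its mean was 1.58 ± 0.42 (SE, 2 pools; limma, adjusted p = 0.128). A second Cacng2 probe set gave 0.10 (HD) and 1.10 (WT). Cacna2d1, an alpha2delta subunit bound by gabapentin, had 6.49 (HD) and 7.75 (WT) with CPEB4, against 6.0 (HD) and 5.21 (WT) with IgG. The groups did not overlap, and the log2 fold was 1.51 ± 0.80 (SE, 2 pools; limma, adjusted p = 0.298), with 0.49 in the HD pool and 2.54 in the WT pool. The Cacna2d1 value was 0.53 without the WT CPEB4 array, 2.49 without the HD CPEB4 array and 0.65 with its probe sets averaged. Scn2b, a sodium channel beta subunit, had 9.90 (HD) and 10.23 (WT) with CPEB4, against 8.17 (HD) and 9.10 (WT) with IgG. Its log2 fold was 1.43 ± 0.40 (SE, 2 pools; limma, adjusted p = 0.14).

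**Figure D2:**
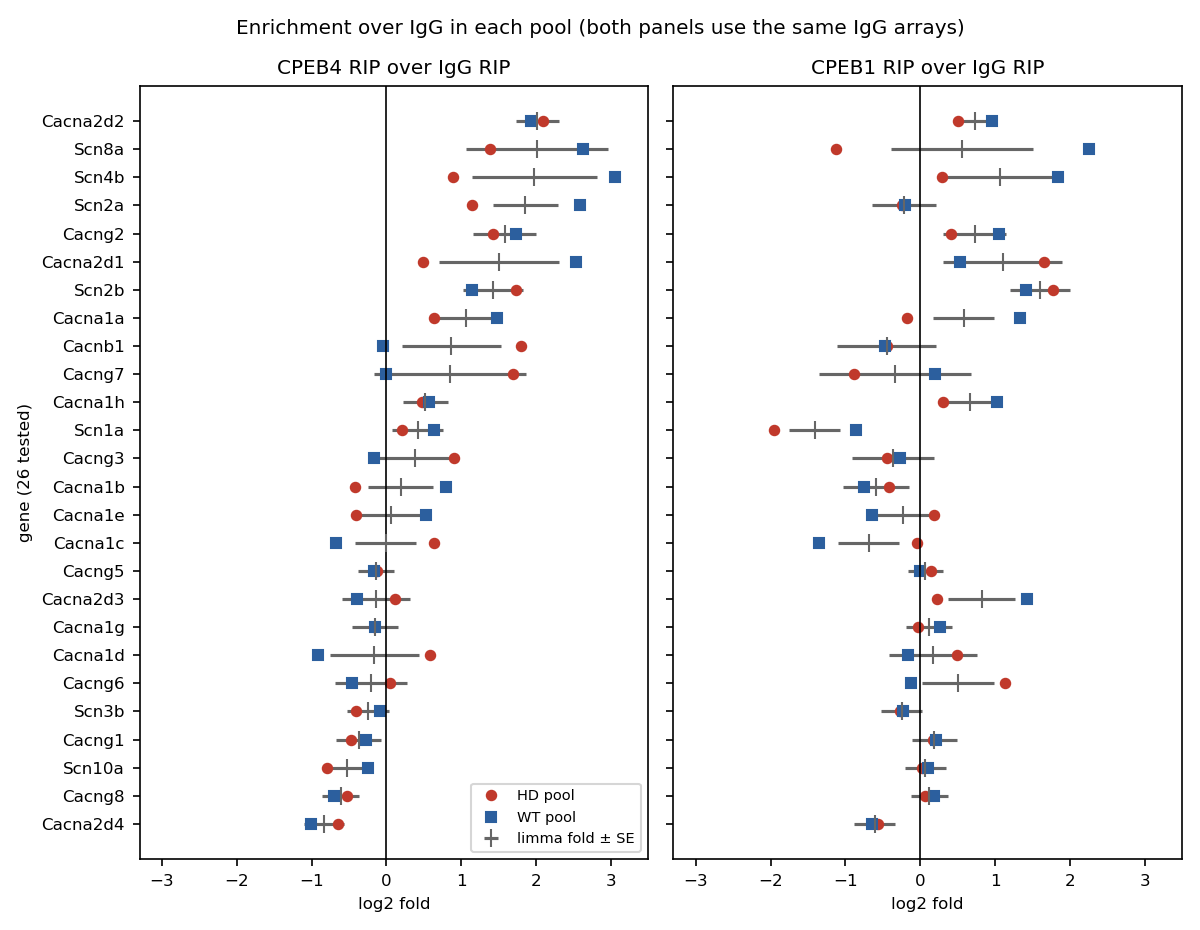
Log2 fold over IgG of the 26 tested channel genes for CPEB4 RIP (left) and CPEB1 RIP (right); circles are the HD pool, squares the WT pool, and bars the limma fold with its SE. Cacna2d2 lies at 2.09 (HD) and 1.94 (WT) with CPEB4, while Scn4b lies at 0.89 (HD) and 3.06 (WT), and both panels use the same IgG arrays.

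By role, the 7 tested pore genes of calcium channels had log2 folds of CPEB4 over IgG between -0.16 and 1.06, the highest in Cacna1a, the P/Q-type pore of nerve terminals. The other Cacna1a probe sets gave -1.30, -0.34 and 0.29. The 4 alpha2delta genes ran from -0.83 in Cacna2d4, an alpha2delta gene of retina, to 2.02. The 7 gamma and TARP genes ran from -0.61 in Cacng8 to 1.58 in Cacng2. The 4 sodium channel pore genes ran from -0.52 in Scn10a, a channel of sensory neurons, to 2.01 in Scn8a, and the 3 beta subunits from -0.25 in Scn3b to 1.98. The median over the tested members was 0.28, against -0.06 over all 11345 genes. It was 0.12 without the HD IgG array, 0.49 without the WT CPEB4 array, -0.07 after quantile normalization and -0.01 with no filter, where all genes had -0.03, -0.09, -0.24 and -0.16. Both CPEB4 arrays lay above both IgG arrays for 8 members and below them for 7, where all genes gave 29.3% and 37%. At an unadjusted p under 0.05 there were 5 members higher and 1 lower, against 15.7% and 7.2% of all genes.

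Set against input in place of IgG, the CPEB4 arrays gave 1 member higher and none lower, where all genes gave 1.34% and 0.0176%. It was again Cacna2d2, at 7.39-fold, a log2 fold of 2.89 ± 0.29 (SE, 2 pools; limma, adjusted p = 0.0382). The call was lost whichever of the 8 arrays was left out, with limma adjusted p-values of 0.0521 to 0.239. The second Cacna2d2 probe set also had higher values with CPEB4 than in input, where it read 6.19 (HD) and 6.65 (WT). Its log2 fold over input was 2.15 with CPEB4, 2.45 with CPEB1 and 2.53 with IgG. Scn4b followed at 2.87 ± 0.84 (SE, 2 pools; limma, adjusted p = 0.131). Scn1a, the pore channel of fast-spiking interneurons, had 7.54 (HD) and 8.25 (WT) with CPEB4, against 5.73 (HD) and 6.35 (WT) in input, without overlap. Its log2 fold was 1.86 ± 0.34 (SE, 2 pools; limma, adjusted p = 0.071). On the other Scn1a probe sets it was 0.30 and 0.42. Cacng3, a TARP, had lower values with CPEB4 than in input, at 9.10 (HD) and 9.76 (WT) with CPEB4, against 10.96 (HD) and 10.89 (WT) in input, and did not pass the test (limma, adjusted p = 0.175). At an unadjusted p under 0.05 by limma 6 members were higher and 4 lower, against 13.2% and 12.9% of all genes. Both CPEB4 arrays lay above both inputs for 11 members and below them for 9, against 25.7% and 39.1% of all genes.

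Some members also had different values with IgG than in input, without passing the test. Cacng3 had 8.20 (HD) and 9.92 (WT) with IgG, against 10.96 (HD) and 10.89 (WT) in input, a log2 fold of -1.87 ± 0.55 (SE, 2 pools; limma, adjusted p = 0.44). Scn1a had 7.33 (HD) and 7.61 (WT) with IgG, higher than on both input arrays, at 1.43 ± 0.34 (SE, 2 pools; limma, adjusted p = 0.349). Cacna2d2 was also higher with IgG than in input, without overlap, at 0.87 ± 0.29 (SE, 2 pools; limma, adjusted p = 0.47). The other Scn1a probe sets had log2 folds of IgG over input of 0.50 and 0.07. The log2 folds of CPEB4 over IgG of Scn1a were 0.21 (HD) and 0.64 (WT) on the probe set used. No member passed the test for IgG over input in either direction, against 0.0176% of all genes higher and 0.00881% lower, and 2 higher and 1 lower had an unadjusted p under 0.05 by limma, against 3.15% and 6.6%. Both IgG arrays lay above both inputs for 5 members and below them for 7, against 16.6% and 30% of all genes. The mean log2 fold of IgG over input was below 0 for each of the 7 gamma and TARP genes, between -1.87 and -0.01, where 40.9% of all genes lay above 0. For Cacng5 (-0.01) and Cacng2 (-0.02) it was close to 0 and the pools had opposite signs. The pools were also opposite for Cacng7, at -2.95 (HD) and 0.18 (WT), with a mean of -1.38.

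For CPEB1 over IgG no gene of the 11345 passed the test (0% in each direction), so no member did. At an unadjusted p under 0.05 by limma, 2 members were higher and 1 lower, against 6.37% and 0.996% of all genes. Scn2b had 9.94 (HD) and 10.52 (WT) with CPEB1, against 8.17 (HD) and 9.10 (WT) with IgG. The groups did not overlap, and the pools gave similar log2 folds, 1.77 (HD) and 1.42 (WT). Its log2 fold was 1.60 ± 0.40 (SE, 2 pools; limma, adjusted p = 0.377). A second Scn2b probe set had 7.59 (HD) and 9.93 (WT) with CPEB1, against 6.75 (HD) and 7.75 (WT) with IgG, which overlap.

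Scn1a had 5.38 (HD) and 6.75 (WT) with CPEB1, against 7.33 (HD) and 7.61 (WT) with IgG. Both CPEB1 arrays were below both IgG arrays, at a log2 fold of -1.41 ± 0.34 (SE, 2 pools; limma, adjusted p = 0.356). A second Scn1a probe set gave -0.66 in the HD pool and 0.99 in the WT pool. Cacna2d1 had 7.66 (HD) and 5.74 (WT) with CPEB1, against 6.0 (HD) and 5.21 (WT) with IgG, and the groups overlapped. Its log2 fold was 1.10 ± 0.80 (SE, 2 pools; limma, adjusted p = 0.858), and without the HD CPEB1 array it was -0.04. Scn4b had 5.76 (HD) and 9.24 (WT) with CPEB1, against the IgG values above, a log2 fold of 1.07 ± 0.84 (SE, 2 pools; limma, adjusted p = 0.865). Both CPEB1 arrays lay above both IgG arrays for 4 members and below them for 4, against 24.6% and 12.5% of all genes. The median over the tested members was 0.12, against 0.09 over all genes.

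Against input, no member passed the test for CPEB1 either (0.0176% of all genes higher, 0% lower). By limma 2 members were higher at an unadjusted p under 0.05, Scn2b at 2.01 ± 0.40 (SE, 2 pools; adjusted p = 0.251) and Cacna2d2 at 1.61 ± 0.29 (SE, 2 pools; adjusted p = 0.196), and Cacng3 was lower at -2.23 ± 0.55 (SE, 2 pools; adjusted p = 0.346). All genes gave 5.42% higher and 2.65% lower at that p. The other Scn2b probe sets had log2 folds over input of 0.42 and -0.08, and the other Cacna2d2 ones of 2.45 and 0.00. Both CPEB1 arrays lay above both inputs for 3 members and below them for 5, against 17.6% and 18.7% of all genes.

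The 2 antibodies were then compared directly, as CPEB1 minus CPEB4; these comparisons share arrays with those above. No member passed the test, where 0% of all genes were higher and 0.141% lower with CPEB1. At an unadjusted p under 0.05 by limma, Cacna2d2, Scn1a and Scn2a were lower with CPEB1 and Cacng8 was higher, against 9.41% of all genes lower and 5.92% higher. Both CPEB1 arrays lay above both CPEB4 arrays for 7 members and below them for 6, against 37% and 18.6% of all genes. Scn2a had 5.08 (HD) and 4.71 (WT) with CPEB1, against 6.47 (HD) and 7.50 (WT) with CPEB4. The groups did not overlap, and the difference was -2.09 ± 0.43 (SE, 2 pools; limma, adjusted p = 0.138). Of its other probe sets, the second of the pair above had 3.10 (HD) and 3.10 (WT) with CPEB1, against 5.05 (HD) and 5.07 (WT) with CPEB4. Fitted singly among all probe sets, it differed by -1.96 ± 0.15 (SE, 2 pools; limma, adjusted p = 0.0308), where 0.574% of all probe sets were lower with CPEB1. The other 2 Scn2a probe sets did not pass in that fit, at -1.79 (limma, adjusted p = 0.0591) and 0.04.

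Scn1a had 5.38 (HD) and 6.75 (WT) with CPEB1, against 7.54 (HD) and 8.25 (WT) with CPEB4, without overlap, a difference of -1.83 ± 0.34 (SE, 2 pools; limma, adjusted p = 0.116). The other Scn1a probe sets differed by 0.36 and -0.51. Scn8a had 7.19 (HD) and 9.41 (WT) with CPEB1, against 9.70 (HD) and 9.78 (WT) with CPEB4. The groups did not overlap, at a mean difference of -1.44 ± 0.95 (SE, 2 pools; limma, adjusted p = 0.436). On this probe set most of it came from the HD pool, at -2.52, with -0.37 in the WT pool. Without the HD CPEB1 array the mean difference was 0.12. The other Scn8a probe sets gave -0.80 (HD) and -2.62 (WT), 0.03 (HD) and -3.93 (WT), and 0.12 (HD) and 0.44 (WT). Where their mean was below 0, the WT pool had the larger difference. Cacnb1, a beta subunit, had 5.93 (HD) and 8.19 (WT) with CPEB1, against 8.17 (HD) and 8.60 (WT) with CPEB4, at -1.33 ± 0.66 (SE, 2 pools; limma, adjusted p = 0.364). The groups overlapped, and the other 2 Cacnb1 probe sets differed by -0.09 and 0.28. Over the alternatives the Cacnb1 difference ran from -1.98 to -0.38. By role, the 4 sodium channel pore genes had a median of -1.64 and the 7 gamma and TARP genes one of 0.21, with -0.35 over the tested members and 0.21 over all genes. The median over the tested members turned to 0.06 without the WT CPEB4 array, 0.04 without the HD CPEB1 array and 0.03 after quantile normalization, and was 0.00 with no filter, where all genes had 0.20, 0.21, 0.25 and 0.18.

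**Figure D3:**
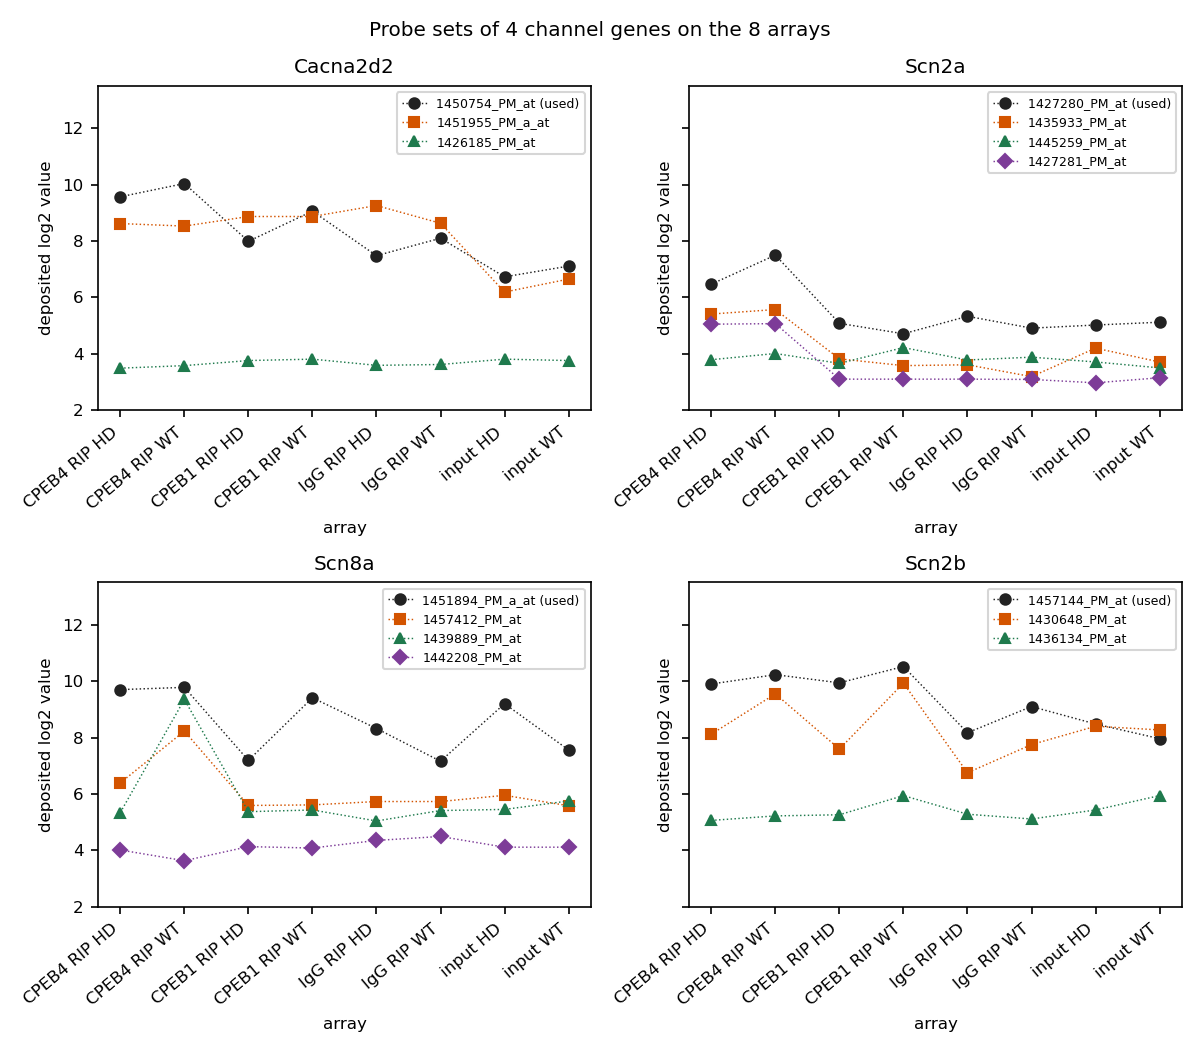
Deposited log2 values of every probe set of Cacna2d2, Scn2a, Scn8a and Scn2b on the 8 arrays; each symbol is 1 probe set, and dotted lines only join its arrays. For Cacna2d2 the probe set used is highest on the CPEB4 arrays and the second is highest with IgG at 9.26 (HD), while 3 of the 4 Scn2a probe sets are highest on the CPEB4 arrays.

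The choice of probe set mattered beyond Cacna2d2. Of the 33 members, 20 had more than 1 probe set, and among their 33 other probe sets 17 had the same sign of CPEB4 over IgG as the one used. For Scn8a a second probe set had 6.39 (HD) and 8.23 (WT) with CPEB4, against 5.73 (HD) and 5.73 (WT) with IgG. Another had 5.34 (HD) and 9.35 (WT) with CPEB4, against 5.04 (HD) and 5.41 (WT) with IgG. On both, the WT CPEB4 array stood above the other 7 arrays. The last Scn8a probe set was lower with CPEB4 in both pools, by -0.35 (HD) and -0.85 (WT). Which transcript forms each probe set reads was not analysed here.

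HD and WT were compared within each fraction. Each side has 1 array, so these differences have no replicate check and were not tested. In input, where the total RNA of the lysate is read, fewer cells of a type and less RNA per cell cannot be told apart. At a log2 difference of 1, that is 2-fold, 1 member was higher and 1 lower in HD input, against 11.3% and 4.43% of all genes. Scn8a had 9.20 in HD input and 7.56 in WT input, a difference of 1.64 or 3.11-fold. Its difference was 0.43 when the gene's probe sets were averaged. Cacna2d3, an alpha2delta subunit, had 3.75 in HD input and 4.87 in WT input, a difference of -1.12. The next largest were Cacng7, a TARP, with 9.57 in HD and 8.76 in WT (0.81), and Cacna1g, a T-type pore, with 5.95 in HD and 5.34 in WT (0.61). On the lower side stood Cacng6, a gamma gene, at -0.90 with 5.22 in HD and 6.12 in WT, and Cacna1d, an L-type pore, at -0.88 with 5.23 in HD and 6.11 in WT. Over the alternatives Cacng7 ran from 0.23 to 0.91 and Cacng6 from -1.0 to -0.35. The untested Scn7a, a sodium-sensing channel, read 5.53 in HD input and 3.98 in WT input, while its other 2 probe sets had lower values in HD input, by -0.74 and -0.25.

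Markers of other cells also differed between the inputs. Ttr, the thyroid hormone carrier of choroid plexus, had 10.49 in HD input and 6.60 in WT input, while the other 2 choroid plexus markers, Kl and Folr1, differed by 0.22 and 0.06. Gfap, an astrocyte filament, had 8.61 in HD input and 6.13 in WT input, while the other 3 astrocyte markers, Aqp4, Slc1a2 and Aldh1l1, differed by -0.37, -0.08 and -1.16. Slc17a7 had 5.37 in HD input and 6.50 in WT input. Their part in the channel differences was not tested.

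Of the tested members, Scn4b had the lowest HD minus WT difference with CPEB4 and with CPEB1, and it was singled out after its values were seen. It had 6.37 in HD and 10.46 in WT with CPEB4, 5.76 in HD and 9.24 in WT with CPEB1, 5.47 in HD and 7.40 in WT with IgG, and 5.16 in HD and 5.92 in WT in input. Every HD array lay below its WT counterpart, and the differences were -4.10, -3.48, -1.93 and -0.76. As folds they were 17.1, 11.1, 3.80 and 1.69, lower in HD. Among the 11345 genes ranked from the lowest difference, Scn4b was number 4 with CPEB4, 96 with CPEB1, 472 with IgG and 889 in input. It was the only member at or below -1 in all 3 precipitates, where 1.16% of all genes were. Over the alternatives tried, its difference with CPEB4 ran from -4.15 to -3.89. Scn4b has a single probe set and each side 1 array, so of the alternatives only the other scalings could change this difference.

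The HD minus WT difference of Scn4b was further from 0 in each precipitate than in input, and that of its log2 fold of CPEB4 over IgG was -2.17. At a log2 difference of 1 between pools, the fold of CPEB4 over IgG was higher in HD for 5 members and lower for 5, against 12.1% and 14.3% of all genes. For CPEB1 over IgG these were 3 and 6, against 8.82% and 17.8%. Most medium spiny neuron markers had lower values in HD in the precipitates too. Their median HD minus WT difference over the 7 measured was -0.97 with CPEB4, -1.02 with CPEB1, -1.07 with IgG and -0.06 in input. They lay below 0 in 6, 5, 5 and 4 of the 7. Penk, the enkephalin precursor of one class of these neurons, differed by -1.10, -1.02, -1.07 and -1.34 in the same order, and Rgs9, a G protein regulator, by -1.40, -2.57, -2.50 and 1.09. With CPEB4, Scn4b lay below every one of the 7, and with CPEB1 below all but Drd2, which differed by -4.25. Markers of other cells were also lower in HD in some precipitates. With CPEB1 the 3 measured interneuron markers had a median difference of -2.77, all at or below -1, and the 4 astrocyte markers one of -1.31, all below 0. With IgG the 4 oligodendrocyte markers had a median of -1.13, with 3 below 0. Markers of some other cells were higher in HD. The 3 endothelium markers had medians of 0.3 with CPEB4, 0.35 with CPEB1 and 0.21 with IgG, and 0 of them lay below 0. The 3 choroid plexus markers had medians of 0.52, 0.46 and 0.08 in that order, with 1 below 0 with IgG. The cortical marker Slc17a7 had 4.86 in HD and 8.09 in WT with CPEB4, while Neurod6 and Tbr1, the other 2 cortical markers measured, read between 2.77 and 2.96 on those arrays. The part of any of these markers in the Scn4b difference was not tested.

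**Figure D4:**
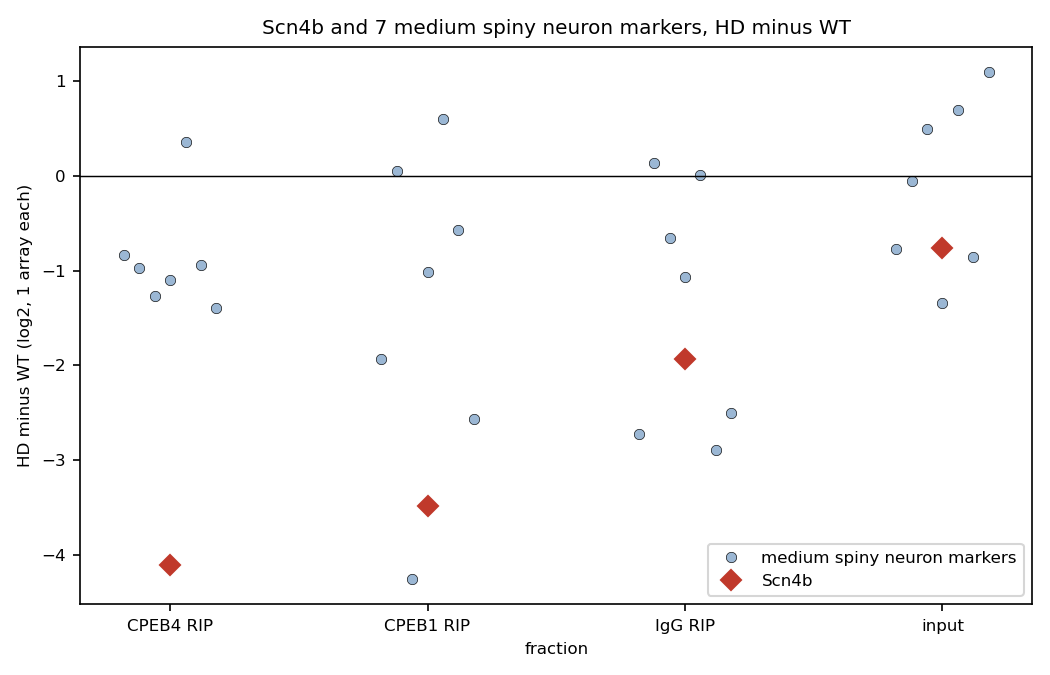
HD minus WT log2 difference in each fraction for Scn4b (diamonds) and the 7 measured medium spiny neuron markers (circles), 1 array per side. Scn4b lies at -4.10 with CPEB4, below all 7 markers, and at -0.76 in input, within their range.

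In the precipitates more members were lower than higher in HD. With CPEB4, 1 was at 2-fold higher and 6 lower, against 4.55% and 11.6% of all genes. With CPEB1 there were 1 higher and 10 lower, against 3.34% and 17.9%, and with IgG 1 higher and 5 lower, against 5.32% and 10%. Besides Scn4b, the lower ones with CPEB4 were the N-type pore Cacna1b, the R-type pore Cacna1e, Cacna2d1, Cacng2 and Scn2a, at -1.61 to -1.03. The other Scn2a probe sets differed by -0.16, -0.22 and -0.02, and the other Cacna2d1 ones by -0.71 and 0.15. A second probe set gave -1.19 for Cacna1b and -0.91 for Cacng2. The 1 higher member was Cacna1d, with 6.06 in HD and 4.54 in WT, and its second probe set differed by 0.30. With CPEB1 the lowest after Scn4b was Cacng7, with 5.74 in HD and 9.14 in WT, and it was also low with IgG, with 6.62 in HD and 8.94 in WT. Cacnb1 followed the same course, with 5.93 in HD and 8.19 in WT with CPEB1, and 6.37 in HD and 8.66 in WT with IgG. Both were closer with CPEB4, at -0.63 for Cacng7 and -0.44 for Cacnb1. The HD CPEB1 array had only 1 member above a value of 8, against 8 on the WT CPEB1 array, and over all genes 866 against 1607.

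**Figure D5:**
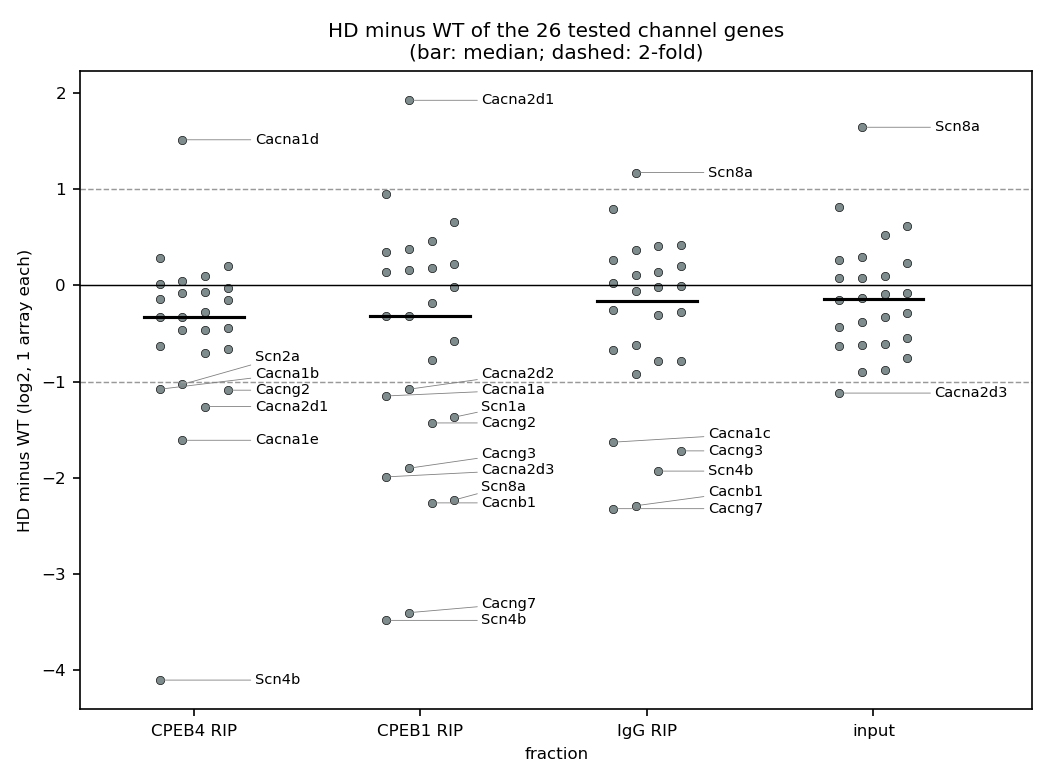
HD minus WT log2 difference of the 26 tested channel genes in each fraction, 1 array per side; points are genes, bars the median and dashed lines a 2-fold difference, beyond which genes are named. The medians are -0.33 with CPEB4, -0.32 with CPEB1, -0.16 with IgG and -0.14 in input, and Scn4b is the lowest point with CPEB4 and with CPEB1.

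Over all 4 fractions, 7 members were lower in HD every time, Cacna1c, Cacna1h, Cacna2d2, Cacna2d3, Cacnb1, Scn1a and Scn4b, and none was higher every time, against 7.18% and 7.03% of all genes. Cacna1c, Cacna2d2, Cacnb1 and Scn1a have other probe sets, which did not all follow. A second probe set was higher in HD input for Cacna1c (0.54) and Scn1a (0.15), and with IgG for Cacna2d2 (0.63). Another Cacnb1 probe set was also lower in HD in all 4 fractions, and the last was higher in HD input, by 1.42. The median HD minus WT difference of the tested members was below that of all genes in each fraction. With CPEB4 it was -0.33 against 0.06, with CPEB1 -0.32 against 0.00, with IgG -0.16 against 0.05, and in input -0.14 against -0.08.

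Proteins that bind or regulate these channels were read from a list of 36 symbols, Nalf1 and Fam155a being names of 1 gene, of which 31 had a probe set and 28 were tested. None passed the test in any of the 6 comparisons. For CPEB4 over IgG, 8 of the 28 were higher at an unadjusted p under 0.05 by limma and none lower, against 15.7% and 7.2% of all genes, and the median log2 fold was 1.14, against -0.06 over all genes. For CPEB1 over IgG the median was 0.12, against 0.09 over all genes. Stac2, a binding partner of L-type channels, had 7.93 (HD) and 7.09 (WT) with CPEB4, against 4.75 (HD) and 4.38 (WT) with IgG. Its log2 fold was 2.95 ± 1.19 (SE, 2 pools; limma, adjusted p = 0.224). The Stac2 log2 fold was 2.91 for CPEB1 over IgG, 0.60 for CPEB4 over input and -2.35 for IgG over input. Nedd4l, a ubiquitin ligase that removes sodium channels from the membrane, had 6.61 (HD) and 9.04 (WT) with CPEB4, against 5.18 (HD) and 5.42 (WT) with IgG, at 2.52 ± 0.73 (SE, 2 pools; limma, adjusted p = 0.146). Stx1a, a syntaxin that binds calcium channels at release sites, stood at 2.41 ± 1.17 (SE, 2 pools; limma, adjusted p = 0.274). Fgf14, a sodium channel partner at the axon initial segment, had 7.66 (HD) and 7.20 (WT) with CPEB4, against 4.69 (HD) and 5.42 (WT) with IgG, at 2.38 ± 0.55 (SE, 2 pools; limma, adjusted p = 0.101). The 4 were named for having the largest folds of CPEB4 over IgG. That both CPEB4 arrays lay above both IgG arrays for each, as for 29.3% of all genes, is therefore no separate result.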

How the data were processed

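The files hold 1 log2 value per probe set and array, which the authors made with RMA, per the submitters' processing notes. The RMA version, and whether it was run on the 8 arrays jointly, were not given in the sources used here. Log2 values were used as deposited. Per the labels' protocols, RNA was amplified over 27 cycles and 8 µg of cDNA was hybridised per array. Of 45101 probe sets, 28898 had 1 gene symbol in the platform annotation, 551 several and 15652 none. Of the 28898, 28689 matched a RefSeq gene of GRCm38.p6. No coordinates are printed, since the genome build of the array annotation was not stated.

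Tests used limma 3.58.1 under R 4.3.3 (lmFit, eBayes, two-sided, Benjamini-Hochberg over 11345 genes, threshold 0.05). The model held fraction and pool over all 8 arrays, with 3 residual degrees of freedom and 2.29 from the prior. Replicates of a fraction are its 2 genotype pools, and "2 pools" beside an SE gives that number. The pool term takes out a gene's average HD minus WT difference. The error behind the SE and p-values is the remaining scatter over all 4 fractions, combined with the prior from all genes. A gene therefore had the same SE in each comparison of the main fit, such as 0.29 for Cacna2d2. Spread between single mice was not measured, and the number of arrays limits the precision. Every channel gene could be named. Full statistics were given for genes past a test, for the 6 largest folds of CPEB4 over IgG, the 4 largest of CPEB1 over IgG and of CPEB1 minus CPEB4 with the same sign in both pools, and for 3 each way in input. Up to 4 partner genes were named. Outside that rule, and chosen after their values were seen, are Scn2b for CPEB4 over IgG and the genes other than Cacna2d2 against input. So are Cacna2d2 against input with CPEB1 or IgG, and all probe sets other than the one used. The members, lists and tests were chosen with earlier results of these data known. The alternatives were other filters, scalings, probe set rules, fold thresholds and models, and leaving out each array.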

Additional observations from a re-analysis of the deposited data

Results flagged for a closer look

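In 3 comparisons a channel gene was at least 2-fold higher in 1 pool and at least 2-fold lower in the other, and the difference between pools was not tested. Scn8a had a log2 fold of CPEB1 over IgG of -1.13 in the HD pool and 2.26 in the WT pool, which differ by -3.39. Against input the Scn8a log2 fold of CPEB1 was -2.01 in the HD pool and 1.86 in the WT pool, which differ by -3.86. Both rest on the same CPEB1 arrays, with 7.19 in HD and 9.41 in WT, and on 1 probe set. On the other Scn8a probe sets the log2 folds of CPEB1 over IgG lay between -0.41 and 0.33 in the pools. Over input they lay between -0.37 and 0.03. Cacna2d1 had a CPEB1 minus CPEB4 difference of 1.18 in the HD pool and -2.00 in the WT pool, which differ by 3.18. Among all 11345 genes such opposite pools occurred in 1.91% for CPEB1 over IgG, 4.05% for CPEB1 over input and 1.71% for CPEB1 minus CPEB4.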

How the results depend on the processing

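Of the single-gene values recomputed under the alternatives, 386 kept their side of the threshold or, for untested HD minus WT differences, moved by less than 1 SD of all genes. Among these 386 the sign changed in 6, all untested differences between -0.39 and 0.20, in Scn8a, Cacna1g and Cacng6 with CPEB4 and Cacna1d with IgG. Of the others 25 lost a call, all 25 in Cacna2d2, 1 gained one, 2 reversed and 5 moved, all 5 in Scn8a. The call of 1 channel gene for CPEB4 over IgG became 0 under the 75th percentile filter, cyclic loess, quantile normalization, no pool block, trended robust eBayes and only the arrays of the 2 fractions. Leaving out an array gave 0 to 1, and all probe sets fitted singly gave 2 genes. For CPEB4 over input the count of 1 became 0 under the 75th percentile filter, quantile normalization, trended robust eBayes, only the 2 fractions' arrays and whichever array was left out (0 to 0), and 2 under cyclic loess and with all probe sets fitted singly. For CPEB1 minus CPEB4 the count of 0 became 1 with all probe sets fitted singly. Averaging probe sets within genes, the 1 call for CPEB4 over IgG was Scn2a (1.5, limma adjusted p = 0.0477) in place of Cacna2d2. The reversals were Cacna2d1 for CPEB1 over IgG (-0.04) and Scn8a for CPEB1 minus CPEB4 (0.12), both without the HD CPEB1 array; leaving out each array gave ranges of -0.04 to 2.24 and -3.01 to 0.12, and the cause was not tested. Over 17 alternatives, Cacna2d2 for CPEB4 over IgG had log2 folds of 0.52 to 2.18 and adjusted p-values of 0.0416 to 0.218. Members at 2-fold HD minus WT with CPEB4, 7 as reported, numbered 3 after quantile normalization and 2 at 3-fold. With CPEB1, 11 became 7 with the mean of probe sets and 7 at 3-fold, and with IgG 6 became 12 at 1.5-fold. In input, 2 became 1 under the 75th percentile filter, the mean of probe sets and 3-fold, and 10 at 1.5-fold. Over all genes the count for CPEB4 over IgG was 269, against 135 with the 75th percentile filter, 9 after quantile normalization, 0 with only the 2 fractions' arrays and 0 to 274 when an array was left out. For CPEB4 over input it was 154, against 9, 2 and 0 under the same settings, 305 after cyclic loess and 239 with no pool block. For CPEB1 minus CPEB4 it was 16, against 0, 1 and 0 under those settings, 61 after cyclic loess, 81 with no pool block and 75 with trended robust eBayes. Leaving out any array gave 0 for both. For CPEB1 over input, 2 became 3 with cyclic loess or no pool block, and 0 with median centring, trended robust eBayes, only the 2 fractions' arrays or whichever array was left out. For IgG over input, 2 higher and 1 lower became 4 and 5 with cyclic loess and 4 and 4 after quantile normalization, and 0 in all with trended robust eBayes, only the 2 fractions' arrays or whichever array was left out. Quantile normalization moved the median log2 fold of CPEB4 over IgG of all genes to -0.24 and of the tested members to -0.07.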

Other observations

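Some channel probe sets outside the test by gene read high on the WT CPEB4 array, and the Scn3b one on both CPEB4 arrays. A second Scn3a probe set, of an embryonic sodium channel pore, had 3.25 in HD and 5.65 in WT with CPEB4, against 3.11 (HD) and 3.10 (WT) with IgG. A second Cacna1c probe set, of an L-type pore, had 4.88 in HD and 6.59 in WT with CPEB4, against 4.74 (HD) and 4.45 (WT) with IgG. The single probe set of the untested beta subunit Cacnb4 had 3.63 in HD and 4.98 in WT with CPEB4, against 3.33 (HD) and 3.56 (WT) with IgG. A second Scn3b probe set was high on both CPEB4 arrays, with 4.18 in HD and 5.83 in WT, against 3.53 (HD) and 3.19 (WT) with IgG. These probe sets were chosen after their values were seen. The probe sets used for Scn3a, Scn3b and Cacna1c had log2 folds of CPEB4 over IgG of -0.43, -0.25 and -0.01.

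Some members are neighbours in the RefSeq table of GRCm38.p6, with 0 protein-coding genes between them. Scn2b and Scn4b are such a pair, and their HD minus WT differences with CPEB4 were -0.33 and -4.10. Cacng7, Cacng8 and Cacng6 are another run, at -0.63, 0.28 and 0.20 with CPEB4.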
